A study of Chlamydomonas reinhardtii with 90 samples.

Results

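HSP22A (Cre07.g318800), HSP22B (Cre07.g318850) and HSP22H (Cre07.g318600) encode small heat shock proteins (HSPs) of the unicellular green alga Chlamydomonas reinhardtii. They were taken by gene ID from the tables of read counts and of TPM (transcript abundance per gene length, scaled to the same total in every library), and were 3 of the 17741 genes in them. All 3 genes lie on chromosome 7. In the order of the RefSeq annotation, 0 genes lie between HSP22A and HSP22B, and 3 genes lie between HSP22H and HSP22A. The study's annotation places HSP22A and HSP22B head to head and expects both proteins in the cytosol.

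Small HSPs are chaperones that work without ATP. They assemble into oligomers through a conserved alpha-crystallin domain, bind other proteins that begin to unfold, and keep them in a state from which HSP70 and HSP100 chaperones can refold them. In Chlamydomonas, heat shock genes are switched on by HSF1, a heat shock transcription factor that binds heat shock elements in promoters.

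The cultures were of the wild-type strain CC-1690 (mating type plus), grown in acetate-containing TAP medium in turbidostatic photobioreactors under constant light. Cultures were heated to 40°C or to 35°C for 24 h and then kept at 25°C for 48 h of recovery, and each treatment had separate cultures with their own pre-heat samples at 25°C. Each time course had a sample before heat, 8 samples in heat from 0 h (then 0.5, 1 and 2 h, then 4 and 8 h, then 16 h) to 24 h, and 6 in recovery from 0 h (then 2, 4, 8 and 24 h) to 48 h, where 0 h is the moment the culture reached the new temperature. Each of the 30 groups had 3 biological replicates (libraries A, B and C), giving 90 libraries of polyadenylated RNA from 1 strain.

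Libraries held 10872030 to 35917831 counted reads, and library B of 16 h at 40°C was the shallowest. The 3 genes were among the 15541 genes with enough reads to be tested. HSP22A had reads in every library, HSP22B had 0 reads in 4 libraries, and HSP22H had fewer than 10 reads in 64 of 90 libraries and 0 reads in 10. Reads that mapped to more than 1 place had been dropped, so close paralogs lose reads, and the part of this in the levels of the 3 genes was not tested. In bulk RNA, more transcript per cell and more cells with the transcript cannot be told apart.

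HSP22A was the most abundant of the 3 transcripts, and it reached its highest level at 0.5 h of 40°C. Its pre-heat level at 40°C was 1.01, 0.485 and 0.410 TPM in libraries A, B and C. The level was 2193, 3152 and 5321 TPM when 40°C was reached (0 h), and 33993, 32453 and 25306 TPM at 0.5 h. At 0.5 h this single transcript took 2.88, 2.64 and 2.21% of all counted reads, and its mean of 30584 ± 4635 TPM (SD, n = 3) was the 3rd highest of 17741 genes.

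The level then dropped within hours while the cultures were still at 40°C. HSP22A had 23300.5, 14032 and 13886 TPM at 1 h, and 1749, 2504 and 2954 TPM at 2 h. By 4 h it was at 128, 63.9 and 81.1 TPM, and at 8 h at 97.3, 93.3 and 92.6 TPM. All of these libraries lay far above the pre-heat libraries, and those of 4 h and 8 h overlapped each other.

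At the end of heat HSP22A was at 286, 449 and 221 TPM (24 h), and in recovery it came down in steps. It had 149, 494 and 136 TPM at 0 h of recovery, 24.0, 211 and 29.7 TPM at 2 h, and 2.53, 18.8 and 3.60 TPM at 4 h. A later, smaller elevation followed: 4.98, 10.6 and 15.5 TPM at 8 h, 39.8, 41.0 and 48.2 TPM at 24 h, and 4.49, 4.72 and 7.43 TPM at 48 h. The 24 h libraries of recovery stood above all libraries of 8 h and 48 h, without overlap.

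**Figure D1:**
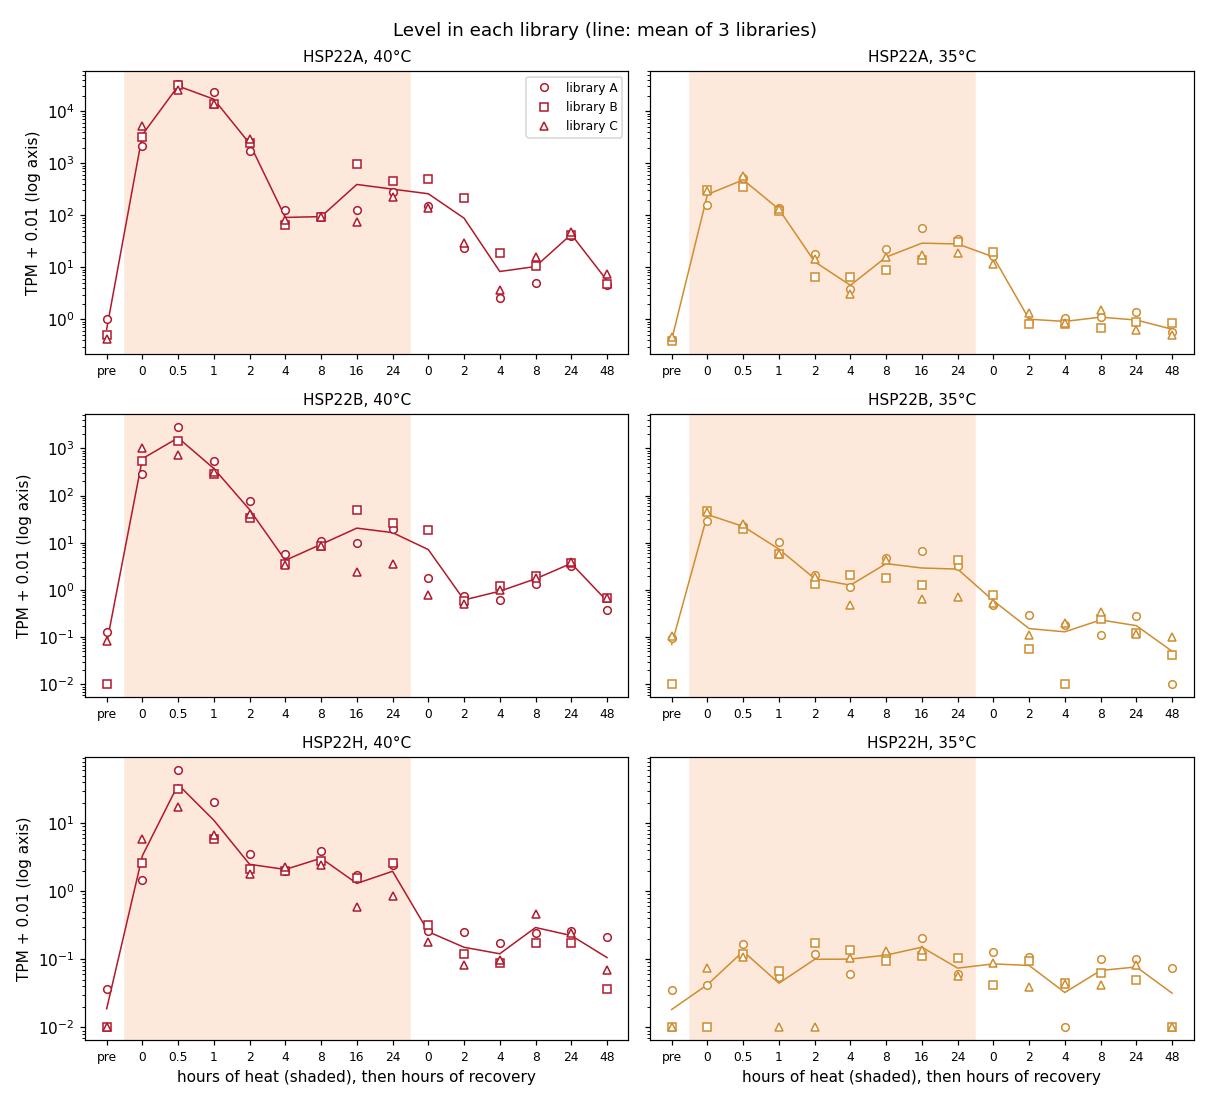
TPM of HSP22A, HSP22B and HSP22H (rows) in each library at 40°C (left) and 35°C (right), on a log axis with a small constant added so that values of 0 can be drawn. Symbols are libraries A, B and C, the line joins the means of 3 libraries, and heat is shaded. The 40°C and 35°C panels of a gene share the same range, which differs between genes. HSP22A at 40°C is highest at 0.5 h (mean 30584 TPM) and has a later elevation at 24 h of recovery (mean 43.0 TPM), while HSP22H at 35°C stays at or under 0.196 TPM.

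Changes were tested against the pre-heat group of the same treatment with edgeR's quasi-likelihood test over all 90 libraries. A gene was called changed at a Benjamini-Hochberg adjusted p under 0.05, an absolute log2 fold change above 1 and a difference of at least 1 TPM between means. HSP22A was called higher at 13 of 14 time points at 40°C, which were 8 of 8 in heat and 5 of 6 in recovery. The share of all tested genes called higher at the 8 successive time points of 40°C heat was 7, 15.2, 12.3, 9.07, 7.9, 8.56, 11.2 and 12.8%. At the 6 successive time points of recovery it was 16.4, 17.5, 13.8, 7.18, 1.09 and 0.0193%.

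At 0.5 h of 40°C the log2 fold change of HSP22A was 16.15 (SE 1.05, edgeR adjusted p = 1.14e-21) and ranked 1 among all 15541 genes. It was 7.16 at 8 h, the lowest value in heat, and 2.59 at 4 h of recovery. At 24 h of recovery it was 5.95 (edgeR adjusted p = 1.88e-07). At 48 h of recovery HSP22A was not called (log2 fold change 3.15, SE 0.80, edgeR adjusted p = 0.0956; DESeq2 called it, with an adjusted p of 0.00265), although its 3 libraries lay above the 3 pre-heat libraries. The comparisons within a treatment share the same 3 pre-heat libraries.

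The 4 h recovery call depended on library B. Without that library of the 4 h group the log2 fold change was 1.19 (edgeR adjusted p = 0.259), and without all B libraries 1.04 (edgeR adjusted p = 0.203).

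At 35°C HSP22A was also highest at 0.5 h of heat, at lower levels than at 40°C. It had 0.385, 0.366 and 0.441 TPM before heat, 157, 308 and 290.2 TPM at 0 h, and 515, 353 and 574 TPM at 0.5 h. At 1 h it was at 139, 123 and 131 TPM, at 2 h at 17.8, 6.45 and 14.1 TPM, and at 4 h at its lowest level in heat, 3.88, 6.52 and 3.10 TPM. The 4 h libraries still lay above all pre-heat libraries.

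Levels at 35°C were higher again later in heat. HSP22A had 22.5, 8.87 and 15.8 TPM at 8 h, 56.3, 13.95 and 17.1 TPM at 16 h, and 34.9, 30.3 and 19.1 TPM at 24 h. Recovery began with 16.2, 19.7 and 11.5 TPM, and from 2 h on every library was between 0.495 and 1.504 TPM. These late libraries lay above the 3 pre-heat libraries at each of the 5 time points, by less than 1 TPM in the means.

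HSP22A was called higher at 9 of 14 time points at 35°C, which were 8 of 8 in heat and the first in recovery. Of all tested genes, 3.72, 3.22, 2.91, 2.52, 2.36, 2.32, 1.92 and 1.57% were called higher at the 8 successive time points of 35°C heat, and 5, 3.22, 3.73, 0.167, 0.0836 and 0% at the 6 of recovery. Its log2 fold change at 0.5 h was 10.53 (SE 0.93, edgeR adjusted p = 2.30e-14), which also ranked 1 among all 15541 genes. At 4 h of heat it was 3.94 (SE 0.89, edgeR adjusted p = 0.000255). From 2 h of recovery on, values of 0.71 to 1.37 did not pass the test.

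HSP22B, the head-to-head partner of HSP22A, was almost silent before heat, with 4, 0 and 3 reads in the pre-heat libraries of 40°C (0.118, 0 and 0.0717 TPM). It had 289.9, 532 and 1000.1 TPM at 0 h of 40°C, 2896, 1410.2 and 726 TPM at 0.5 h, and 529, 284 and 312 TPM at 1 h. It was then at 77.1, 33.4 and 40.8 TPM at 2 h and at 5.82, 3.48 and 3.44 TPM at 4 h. Libraries of 0 h and 0.5 h overlapped, since library C was higher at 0 h than at 0.5 h.

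Later in heat at 40°C the replicates of HSP22B were far apart. Its level was 10.9, 8.41 and 8.46 TPM at 8 h, 9.95, 49.2 and 2.37 TPM at 16 h, and 20.1, 25.7 and 3.51 TPM at 24 h. At 0 h of recovery it was 1.76, 19.0 and 0.770 TPM, with library B far above the other two. From then on the replicates were close, with 0.753, 0.574 and 0.491 TPM at 2 h, 1.34, 2.00 and 1.81 TPM at 8 h, 3.26, 3.72 and 3.98 TPM at 24 h, and 0.370, 0.680 and 0.672 TPM at 48 h.

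HSP22B was called higher at 11 of 14 time points at 40°C: 8 of 8 in heat, and 0, 8 and 24 h in recovery. At 0.5 h its log2 fold change was 15.29 (SE 1.22, edgeR adjusted p = 9.98e-18), the 2nd largest of all 15541 genes. As a read rate this is a ratio of 23869 (exact 95% interval 11585 to 59369), resting on 204678 reads at 0.5 h against 7 reads before heat; the interval covers counting error only. At 24 h of recovery the log2 fold change was 5.601 (SE 1.19, edgeR adjusted p = 0.00118), and at 8 h it was 4.14 (edgeR adjusted p = 0.00905), or 4.81 without replicate A (edgeR adjusted p = 0.0531).

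At 35°C HSP22B was highest when the temperature was reached, and not at 0.5 h. It had 28.8, 46.1 and 43.9 TPM at 0 h, 22.2, 20.04 and 24.5 TPM at 0.5 h, and 10.5, 5.67 and 5.80 TPM at 1 h, against 0.0842, 0 and 0.0964 TPM before heat. The libraries of 0 h lay above those of 0.5 h without overlap, but this step was not called. From 2 to 24 h of heat its libraries were between 0.483 and 6.85 TPM, with the lowest mean, 1.26 TPM, at 4 h.

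HSP22B was called higher at 8 of 8 time points in heat and 0 of 6 in recovery at 35°C. Its log2 fold change was 9.40 at 0 h (SE 1.14, edgeR adjusted p = 7.02e-10) and 8.70 at 0.5 h (SE 1.14, edgeR adjusted p = 5.22e-09), the 3rd largest of all genes at that time. At 0 h of recovery it had 0.463, 0.767 and 0.521 TPM, all above the pre-heat libraries, with a log2 fold change of 3.37 (SE 1.51, edgeR adjusted p = 0.0624). Its calls at 4 h and 16 h of heat were lost when replicate A was left out (edgeR adjusted p = 0.0532 and 0.186). The 4 h call was also lost, for a TPM difference under 1, without replicate B or library B of 4 h, and the 16 h call without library A of 16 h (edgeR adjusted p = 0.0620). With limma on log2(TPM + 1) neither was called, with log2 changes of 1.03 at 4 h and 1.54 at 16 h and limma adjusted p-values over 0.05.

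**Figure D2:**
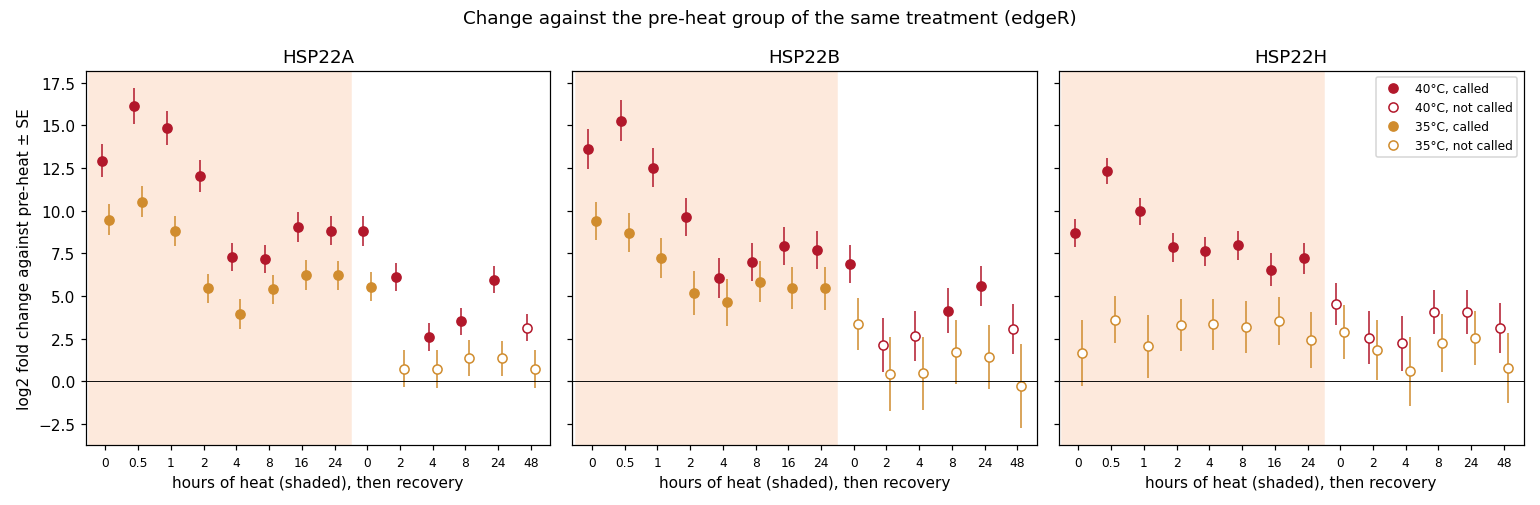
Log2 fold change (± SE, edgeR) of each gene against the pre-heat group of the same treatment, at 40°C and 35°C, by hours of heat (shaded) and recovery; filled points were called and open points were not. HSP22A and HSP22B have filled points throughout heat at both temperatures, HSP22H at 40°C alone, and HSP22A at 40°C goes down to 2.59 at 4 h of recovery before 5.95 at 24 h.

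HSP22H, whose predicted protein carries at least the first part of the alpha-crystallin domain by the study's annotation, was the least abundant of the 3 transcripts. At 40°C it had 1 read in all 3 pre-heat libraries together. It was at 1.45, 2.63 and 5.89 TPM at 0 h, at 61.3, 32.1 and 17.5 TPM at 0.5 h (2746, 1358 and 978 reads), and at 20.7, 5.83 and 6.64 TPM at 1 h. At 2 h it was at 3.49, 2.13 and 1.82 TPM. The libraries of 0.5 h stood above all those of 0 h.

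From 2 h to 24 h of 40°C the group means of HSP22H were 1.29 to 3.05 TPM, with 1.99, 1.97 and 2.28 TPM at 4 h, 3.94, 2.76 and 2.45 TPM at 8 h, 1.74, 1.57 and 0.574 TPM at 16 h, and 2.44, 2.60 and 0.833 TPM at 24 h. At 0 h of recovery it was at 0.255, 0.306 and 0.171 TPM, below all libraries of 24 h of heat. Its mean was 2.08 TPM at 4 h and 2.48 TPM at 2 h, and the libraries of these time points overlapped.

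HSP22H was called higher at 8 of 8 time points in heat and 0 of 6 in recovery at 40°C. At 0.5 h its log2 fold change was 12.33 (SE 0.77, edgeR adjusted p = 2.44e-22), the 8th largest of 15541 genes. As a read rate the ratio was 4149 (exact 95% interval 744 to 163892), with 5082 reads at 0.5 h against 1 read before heat. At 0 h and 8 h of recovery it had adjusted p-values of 0.000916 and 0.00897 by edgeR, with differences between means of 0.235 and 0.275 TPM, under the 1 TPM that a call required.

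At 35°C HSP22H had at most 8 reads in any library, or 0.196 TPM, and was called at 0 of 14 time points. By edgeR 5 of the 14 comparisons had an unadjusted p under 0.05, and DESeq2 and limma made 0 calls. The log2 fold change at 0.5 h was 3.62 (SE 1.40, edgeR adjusted p = 0.0330), on 16 reads against 1 read before heat, a read rate ratio of 14.5 with an exact 95% interval of 2.26 to 609; the means differed by 0.113 TPM.

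Not overlapping with the pre-heat libraries was common among all genes. HSP22A lay above its pre-heat libraries at 14 of 14 time points in both treatments. HSP22B and HSP22H did so at 14 of 14 time points at 40°C, and at 35°C HSP22B did so at 8 of 8 in heat and 3 of 6 in recovery and HSP22H at 5 of 8 and 4 of 6. Over all tested genes and time points, the share in this position was 29.9% in heat and 44.8% in recovery at 40°C, and 12.9% in heat and 27.3% in recovery at 35°C.

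The order of the levels was compared between neighbours in the ranking of the 15 group means. For HSP22A, libraries of neighbouring groups were apart for 6 of 14 neighbours at 40°C and for 5 of 14 at 35°C. For HSP22B they were apart for 4 of 14 in each treatment, and for HSP22H for 2 of 14 at 40°C and 0 of 14 at 35°C. The groups were sorted by these same means, and the share over all genes was not computed. The counts therefore do not say whether these genes differ from others.

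Each time point was then set against the time point before it. At 40°C, 8 of 13 steps of HSP22A, 5 of 13 of HSP22B and 5 of 13 of HSP22H were called, against 10.1% over all tested genes and steps. At 0.5 h against 0 h, where 18.3% of all genes were called, all 3 genes rose, by a log2 fold change of 3.21 for HSP22A (SE 0.62, edgeR adjusted p = 9.15e-06), 3.64 for HSP22H (SE 0.42, edgeR adjusted p = 3.61e-11) and 1.68 for HSP22B (SE 0.65, edgeR adjusted p = 0.0225). The step of HSP22B depended on replicate A: without it the log2 fold change was 0.32 (edgeR adjusted p = 0.736), and it was 0.66 without library A of 0.5 h and 1.30 without library A of 0 h (edgeR adjusted p = 0.426 and 0.126). This step was also not called when scaled by library size alone (edgeR adjusted p = 0.0600) or fitted on the 45 libraries of 40°C (0.0567).

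Lower levels were called at different steps in the 3 genes. At 1 h against 0.5 h (11.6% of all genes called), HSP22B (log2 fold change -2.76) and HSP22H (-2.37) were called lower and HSP22A was not. At 2 h against 1 h (5.78%) all 3 were called lower, by -2.83 for HSP22A, -2.89 for HSP22B and -2.12 for HSP22H. At 4 h against 2 h (5.85%) HSP22A (-4.74) and HSP22B (-3.59) were called and HSP22H was not; whether the genes differed from each other at a step was not tested. Without replicate A the fall of HSP22B at 1 h was -1.93 (edgeR adjusted p = 0.0515). HSP22H was also called lower at 16 h against 8 h (-1.43, edgeR adjusted p = 0.0288; 2.15% of all genes called), a call lost without replicate B or C (edgeR adjusted p = 0.222 and 0.138), without library C of 16 h (0.172) and without library B of 8 h (0.0603). It was also lost with DESeq2 (adjusted p = 0.0604), on the 45 libraries of 40°C (edgeR adjusted p = 0.110), and with limma, where the change of -0.84 was under the required size.

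Around the return to 25°C the calls also came at different steps. HSP22H was called lower at 0 h of recovery against 24 h of heat (log2 fold change -2.68, edgeR adjusted p = 1.68e-05; 21.9% of all genes called), and HSP22A and HSP22B were not. At 2 h of recovery against 0 h (28.1%) HSP22A (-2.70) and HSP22B (-4.77) were called lower; without library B of 0 h of recovery, the value of HSP22B was -2.12 (edgeR adjusted p = 0.0427) and no longer met all 3 criteria. HSP22A was called lower again at 4 h against 2 h (-3.52). It was called higher at 24 h against 8 h (2.44, SE 0.62, edgeR adjusted p = 0.0024) and lower at 48 h against 24 h (-2.81, SE 0.64, edgeR adjusted p = 0.00921); at these 3 steps 9.29, 5.22 and 0.309% of all genes were called. The last of these was lost without replicate A (edgeR adjusted p = 0.0512), without replicate C (0.188), without library A of 48 h (0.0817) and on the 45 libraries of 40°C (0.0918).

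At 35°C the steps of HSP22A that passed were 2 of 13, at 2 h against 1 h of heat (log2 fold change -3.34, edgeR adjusted p = 0.000309) and at 2 h against 0 h of recovery (-4.80, edgeR adjusted p = 3.86e-07), where 1.43 and 18.6% of all genes were called. HSP22B and HSP22H had 0 of 13 calls, against 3.96% over all genes and steps at 35°C. For HSP22B 4 steps had an unadjusted p under 0.05 by edgeR, DESeq2 called 1 and limma 0. For HSP22H these counts were 0, 0 and 0.

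All 3 genes had higher group means at 40°C than at 35°C at each time point of heat and recovery. As ratios of mean TPM at 40°C over 35°C, HSP22A stood at 14.1 when the temperature was reached, then at 63.6, 131 and 188 after 0.5, 1 and 2 h, and at 6.01 after 8 h of heat and 44.9 after 24 h of recovery. HSP22B stood at 15.3 when the temperature was reached, and at 75.4, 29.1 and 2.56 after 0.5, 2 and 8 h. For HSP22H, with under 10 reads in every library at 35°C, the ratio was 305 at 0.5 h and 319 at 1 h and rests on those few reads.

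Libraries of 40°C lay above all libraries of 35°C at 14 of 14 time points for HSP22A, 12 of 14 for HSP22B and 12 of 14 for HSP22H, against 36.6% over all genes and time points. The exceptions were 16 h and 24 h of heat for HSP22B, and 2 h and 48 h of recovery for HSP22H. Before heat the libraries of both treatments overlapped, and the log2 fold changes of 40°C over 35°C were 0.68, 0.08 and -0.10 for HSP22A, HSP22B and HSP22H (edgeR adjusted p = 1 each).

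The response to heat was then compared between temperatures by subtracting the 35°C log2 fold change from the 40°C one (an interaction). HSP22A was called at 5 of 14 time points, against 15.7% over all genes and time points, with differences of 5.62 (SE 1.46, edgeR adjusted p = 0.00113) at 0.5 h, 6.04 at 1 h, 6.55 at 2 h (SE 1.51, edgeR adjusted p = 0.000666), 3.26 at 0 h of recovery (edgeR adjusted p = 0.0441) and 5.36 at 2 h of recovery. At these times 30.1, 20.5, 17.2, 30.2 and 23.5% of all tested genes were called in either direction. The call at 0 h of recovery was lost when replicate A, B or C was left out (edgeR adjusted p = 0.0979, 0.0658 and 0.166), and without library B of that time point at 40°C it was 2.32 (edgeR adjusted p = 0.153). Leaving out a single library of the other groups compared also ended this call for A, B or C of pre-heat at 35°C, B or C of pre-heat at 40°C, and A or C of 0 h of recovery at 35°C (edgeR adjusted p = 0.0505 to 0.0988).

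For HSP22B and HSP22H the difference was called at 0 of 14 time points by edgeR, with 1 time point each at an unadjusted p under 0.05. At 0.5 h it was 6.59 for HSP22B (SE 3.15, edgeR adjusted p = 0.0819) and 8.71 for HSP22H (SE 4.23, edgeR adjusted p = 0.0872). DESeq2 called 5 time points for HSP22B and 6 for HSP22H, and limma on log2(TPM + 1) called 6 and 7. These values rest on pre-heat groups of at most 7 reads. The shares of all genes called by DESeq2 and by limma are not given here. The counts of those tests therefore do not say whether these genes differ from others.

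A direct test of 40°C against 35°C at the same time point, which leaves out the pre-heat libraries and was added after the data were seen, called HSP22A at 13, HSP22B at 8 and HSP22H at 8 of 14 time points, against 11.6% over all genes and time points. At 0.5 h the log2 fold changes were 6.30, 6.66 and 8.61 in that order, where 21.8% of all genes were called in either direction.

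The ratio of HSP22A to HSP22B, on the per-length TPM scale, changed through the time course. Over the 70 libraries with at least 10 reads of both genes it ranged from 3.08 to 367, with a median of 12.4. At 40°C it was 5.32 to 7.56 at 0 h of heat, 11.7 to 34.8 at 0.5 h, 44.0 to 49.4 at 1 h, and 8.89 to 11.1 at 8 h. The libraries of these 4 time points did not overlap, but those of other times in heat did. The ratio was 22.7 to 75.0 at 2 h and 18.4 to 23.6 at 4 h, both overlapping 0.5 h. The libraries of 16 h and 24 h also overlapped those of 0.5 h.

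At 35°C the ratio started at the same height, 5.44 to 6.67 at 0 h, and was 17.6 to 23.4 at 0.5 h and 3.08 to 6.42 at 4 h. At 0 h of recovery it was high in both treatments, 25.9 to 176 at 40°C and 22.2 to 35.0 at 35°C, and at 40°C it was 31.9 to 367 at 2 h. HSP22B had few reads in some of these groups: 14, 14 and 12 at 2 h after 40°C, and 14, 21 and 24 at 0 h after 35°C. After 40°C the ratio was then 3.60 to 15.6 at 4 h of recovery and 3.73 to 8.53 at 8 h. During the later elevation, at 24 h of recovery at 40°C, it was narrow at 11.03 to 12.2.

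**Figure D3:**
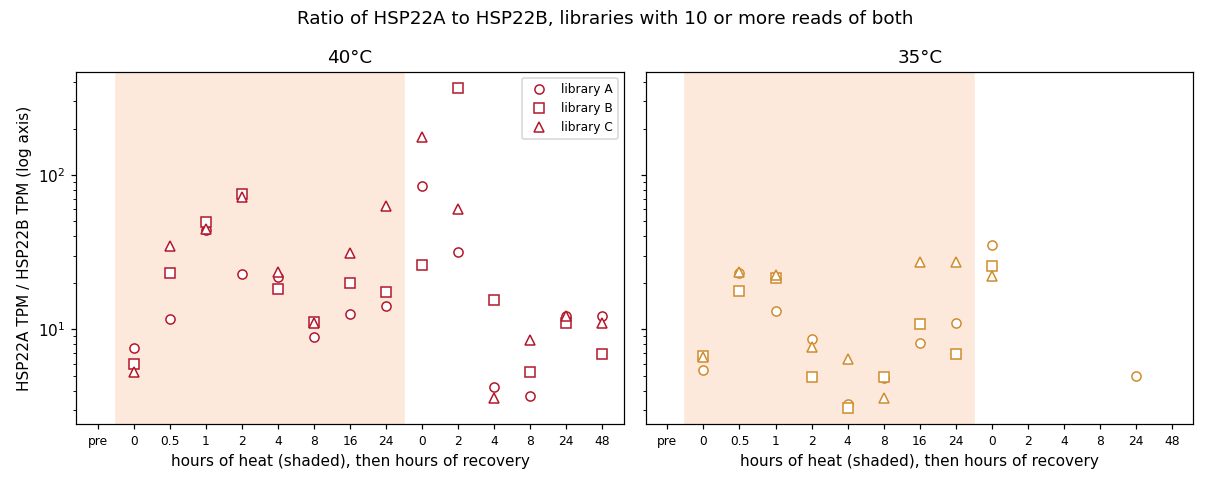
Ratio of HSP22A TPM to HSP22B TPM (log axis) in each library with at least 10 reads of both genes, at 40°C (left) and 35°C (right), by hours of heat (shaded) and recovery; symbols are libraries A, B and C. At 0 h the ratio is 5.32 to 7.56 at 40°C and 5.44 to 6.67 at 35°C, and at 1 h of 40°C it is 44.0 to 49.4.

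HSP22H could be set against the other genes in 26 libraries, all of 40°C. The ratio of HSP22A to HSP22H was 24.7 to 2408 and that of HSP22B to HSP22H 1.51 to 202. HSP22B was 169.8 to 202 times HSP22H at 0 h of heat, 41.6 to 47.3 times at 0.5 h, and 1.51 to 2.92 times at 4 h. At 0.5 h this ratio was nearly fixed although the level of each gene varied several-fold between the libraries.

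At 0 h and 0.5 h of 40°C the 3 genes ranked the libraries alike. At 0 h library C was highest and library A lowest for each of the 3 genes, and at 0.5 h library A was highest and library C lowest for each. The order was not shared at 2 h, where HSP22A was highest in library C (2954 TPM) and HSP22B and HSP22H in library A (77.1 and 3.49 TPM). The spread was wider for HSP22B (726 to 2896 TPM) and HSP22H (17.5 to 61.3 TPM) than for HSP22A (25306 to 33993 TPM) at 0.5 h. The TMM scaling factors of whole libraries ran in the reverse of the shared order. For libraries A, B and C they were 0.899, 0.796 and 0.684 at 0 h, and 0.509, 0.719 and 0.812 at 0.5 h. Whether other genes ranked the libraries in this way was not tested.

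Late in heat and early in recovery at 40°C, library B stood apart for HSP22A. At 16 h of heat HSP22A had 126, 977 and 73.9 TPM in libraries A, B and C, and library B was again highest at 0, 2 and 4 h of recovery. HSP22B was also highest in library B at 16 h of heat (49.2 TPM) and at 0 h of recovery (19.0 TPM). The step of HSP22A at 16 h against 8 h of heat (log2 fold change 1.88, edgeR adjusted p = 0.0282) became -0.03 without library B of 16 h (edgeR adjusted p = 0.989), and was not called without library B or C of 8 h (edgeR adjusted p = 0.0958 and 0.0843) or without replicate C (0.0770). It was also not called with limma (adjusted p = 0.198) or on the 45 libraries of 40°C (edgeR adjusted p = 0.133). Library B of 16 h was the shallowest of the series, and the part of its depth in the result was not tested. Its mean correlation with the others of its group was 0.966, against 0.964 for library A and 0.972 for library C. Libraries of this group and of 0.5 h at 40°C (0.959, 0.980 and 0.964) had the lowest such values of the series. The next lowest was 0.983, for library A of 8 h at 40°C.

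**Figure D4:**
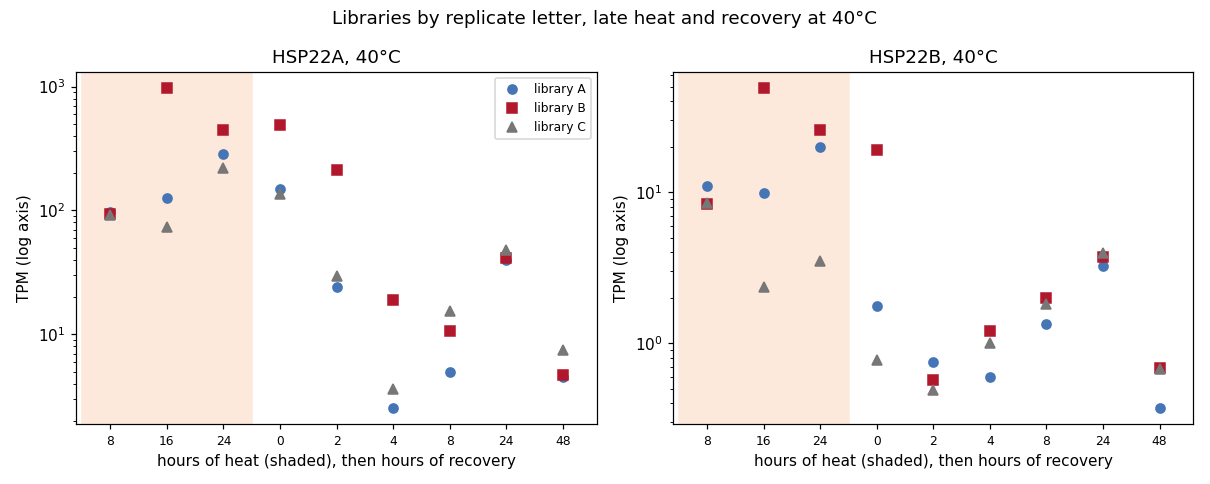
TPM (log axis) of HSP22A (left) and HSP22B (right) in libraries A, B and C from 8 h of heat (shaded) to 48 h of recovery at 40°C. Library B is the highest for HSP22A at 16 h (977 TPM) and for HSP22B at 16 h (49.2 TPM), and the 3 libraries are close together at 8 h of heat and at 24 h of recovery.

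HSP22A made up most of the transcript of the HSP22 family in early heat, and a smaller part at 24 h of 40°C. The 8 genes named HSP22 (HSP22A to HSP22H) had a summed mean of 38390 TPM at 0.5 h of 40°C, of which HSP22A was 72.5, 82.3 and 87.6% from the lowest to the highest library. At 2 h of 40°C it was 87.6 to 95.6% of 2582 TPM, and at 24 h of heat 23.7 to 30.6% of 1212 TPM. Before heat it was 3.46 to 7.85% of 12.9 TPM.

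In early recovery from 40°C the summed mean of the family was higher than at 24 h of heat, with a smaller part from HSP22A. At 0 h of recovery it was 1859 TPM, of which HSP22A was 10.4 to 16.3%. At 2 h of recovery from 40°C the 8 genes summed to 3403 TPM, and HSP22A was 0.487 to 6.23% of it; HSP22E averaged 2403 ± 1157 TPM and HSP22F 856 ± 354 TPM (SD, n = 3 each). The paper describes the HSP22E and HSP22F proteins as targeted to the chloroplast. At 24 h of recovery HSP22A was again 26.2 to 34.4% of 138 TPM. At 35°C HSP22A was 92.2 to 93.7% of 515 TPM at 0.5 h of heat, against 3.16 to 5.10% of 9.80 TPM before heat.

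A list of 6 further genes held the other HSP22 genes and HSP33, a redox-regulated chaperone. At 0.5 h of 40°C, 5 of 6 were called higher and 0 lower (15.2% and 15.3% of all genes), with a median log2 fold change of 10.09 beside 0.01 over all genes; with HSP22G, which had 0 reads before heat, set to a bound against 3 reads over the group, the median was 9.42. HSP33 was the gene not called (0.88, edgeR adjusted p = 1.57e-06, under the required log2 fold change). At 0.5 h of 35°C, 1 of 6 was called higher (3.22% of all genes) and the median was 0.37, or 0.20 with the bound, beside 0.04 over all genes. HSP22C was the gene called at both temperatures, with log2 fold changes of 12.57 at 40°C (SE 0.81, edgeR adjusted p = 9.77e-22) and 4.81 at 35°C (SE 0.73, edgeR adjusted p = 1.83e-07).

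HSP22E was at 9.43 at 40°C and 0.22 at 35°C, HSP22F at 9.41 and 0.17, and HSP22D at 10.74 and 0.07, where the values at 35°C did not pass the test. HSP22G was at 2.23 to 6.66 TPM at 0.5 h of 40°C and at 0 reads in the 3 pre-heat libraries. At 24 h of recovery from 40°C, 3 of these 6 genes were called higher (1.09% of all genes; median log2 fold change 2.72), which were HSP22C, HSP22E and HSP22F.

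The list of larger, ATP-dependent chaperones had a lower median change than the 6 further genes at 0.5 h of 40°C and a higher one at 0.5 h of 35°C. Of 11 HSP70 and HSP90 genes, 8 were called higher and 1 lower at 0.5 h of 40°C (median log2 fold change 3.56), beside 15.2% and 15.3% of all genes. At 0.5 h of 35°C, 4 were called higher and 0 lower (median 0.92), beside 3.22% and 5.75% of all genes. The highest at 40°C were HSP90C (4.82), HSP90B (4.52), HSP90A (4.46) and HSP70A (3.79). The 3 heat shock factor genes were all called higher at 0.5 h of 40°C (median 3.39) and 2 of 3 at 0.5 h of 35°C (median 1.07), against the same shares of all genes. HSF1, the activator of heat shock genes, averaged 15.9 ± 4.20 TPM at 0.5 h of 40°C against 2.29 ± 0.12 TPM before heat (log2 fold change 3.39), and 3.78 ± 0.95 TPM at 0.5 h of 35°C against 2.27 ± 0.22 TPM before heat (log2 fold change 1.07; SD, n = 3 each). At 24 h of recovery from 40°C none of the larger chaperones and none of the factors was called, 0 of 11 and 0 of 3. Over all genes 1.09% were called higher and 0.0965% lower at that time, so lists of this size would mostly hold no call.

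Of 17 neighbouring genes tested around the 3 small HSP genes, 2 were called higher and 3 lower at 0.5 h of 40°C, shares near the 15.2% and 15.3% over all genes. At 0.5 h of 35°C 0 were called, beside 3.22% higher and 5.75% lower over all genes. Their median log2 fold changes were 0.12 at 40°C (0.06 with a gene at 0 reads before heat set to its bound) and 0.05 at 35°C. The genes called higher were Cre07.g318450 (SEC61B, a subunit of the channel that takes proteins into the endoplasmic reticulum, 1.18) and Cre07.g318950 (2.36). Cre07.g318702 (-1.88) and Cre07.g318750 (-2.23), which lie between HSP22H and HSP22A, were called lower, as was Cre07.g319100 (-1.80).

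**Figure D5:**
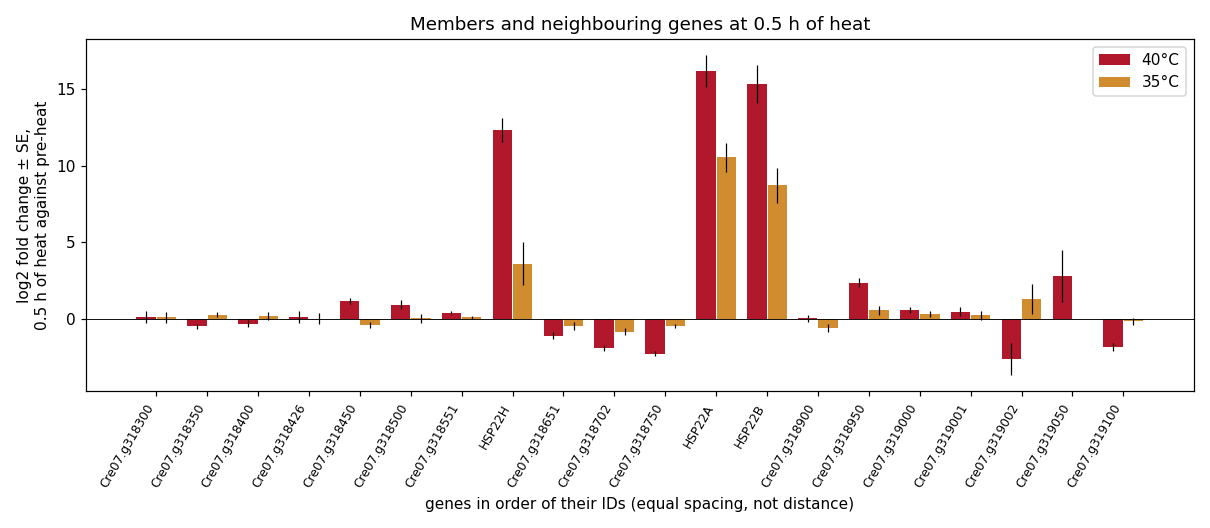
Log2 fold change (± SE, edgeR) at 0.5 h of heat against pre-heat for the 3 small HSP genes and 17 neighbouring genes, in the order of their IDs with equal spacing, at 40°C (left bar of each pair) and 35°C (right bar). HSP22H, HSP22A and HSP22B stand at 12.33, 16.15 and 15.29 at 40°C, and the neighbours called higher at 40°C are at 1.18 and 2.36.

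Likeness of time courses was described by Pearson's r of log2(TPM + 1) over the 30 group means, with no test, since the means share pre-heat, heat and recovery phases. Among 15540 other genes, HSP22B was the most like HSP22A (r = 0.944), followed by Cre10.g436400 (0.917), CGL33A (0.914), Cre15.g638400 (0.901) and the pherophorin gene PHC8 (0.901). For HSP22B the most alike were DNJ7, which encodes a DnaJ-like protein (0.973), FKB62, which encodes an FKBP-type prolyl isomerase (0.972), Cre08.g364550 (0.965), Cre04.g231320 (0.958) and Cre03.g152750 (0.954), with HSP22A in 8th place. For HSP22H they were Cre03.g179650 (0.971), Cre01.g017701 (0.951), EFS2 (0.947), MTA2 (0.943) and Cre08.g366350 (0.941), with HSP22B in 134th place (r = 0.843) and HSP22A in 274th place (r = 0.794). Group means of HSP22H were at most 0.141 TPM at 35°C and 0.284 TPM in recovery from 40°C. With 1 added to TPM these groups lie near 0, so its r rests mostly on 40°C heat. The places therefore do not say that its time course differs from those of HSP22A and HSP22B.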

How the data were processed

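Polyadenylated RNA of 90 Chlamydomonas libraries was analysed (30 groups of 3 biological replicates). The authors cleaned reads (BBDuk, BBMap), assessed quality with FastQC, aligned reads to the genome with STAR, retaining those that mapped to a single locus, and used HTSeq for gene counts; tool versions, and use of strand in counting: not given in the sources used here. A count table was deposited as raw read counts for 17741 genes. The deposited TPM values are the authors' counts divided by a fixed gene length and scaled to a sum of 1000000 per library.

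Genes with at least 10 reads in at least 9 libraries (10%) were kept, which left 15541 genes and all 3 members. The model was fitted on counts in edgeR 4.0.16 under R 4.3.3 (TMM scaling, 1 mean per group, 90 libraries, quasi-likelihood test, Benjamini-Hochberg adjustment over all tested genes); SE is the log2 fold change divided by the square root of F. TPM differences were not required for the comparison of the treatments. Library totals were 10872030 to 35917831 reads, HSP22H had under 10 reads in 64 of 90 libraries, and intervals cover counting error only. The fit was tested on simulated counts.

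The members, the gene lists and the tests were chosen with earlier results of these data known. Named genes were the 3 members, HSP22C to HSP22G, HSF1 and HSF2, up to 4 large chaperones, each neighbour called at 0.5 h, and the 5 genes most like each member; HSP33 was named after its values were seen. HSF2 had log2 fold changes of 3.82 and 1.13 at 0.5 h of 40°C and 35°C. Alternatives were library size or DESeq2 size factor scaling, no filter, no TPM criterion, DESeq2 1.42.0, limma 3.58.1 on log2(TPM + 1), 45 libraries of a treatment, a replicate block and leaving out replicates; direct tests of 40°C against 35°C and leaving out single libraries were added after the data were seen. Names came from the study's annotation, and neighbour order from RefSeq (17738 genes matched).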

Additional observations from a re-analysis of the deposited data

Results flagged for a closer look

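For HSP22A the change from pre-heat at 40°C minus that at 35°C passed edgeR's quasi-likelihood test at 5 time points, where 17.2 to 30.2% of all genes passed. The difference was 5.62 on the log2 scale at 0.5 h of heat, 6.04 at 1 h and 6.55 at 2 h, and 3.26 at 0 h and 5.36 at 2 h of recovery. The pre-heat groups are shared by these 5 values, and that of 0 h of recovery was the least firm (edgeR adjusted p = 0.0441). These differences are not particular to HSP22A: at 0.5 h those of HSP22B and HSP22H were 6.59 and 8.71, with larger errors, and were called by DESeq2 and limma but not by edgeR.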

How the results depend on the processing

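Over 150 single results of the 3 genes, 1566 values were recomputed under other settings: 1481 kept their direction and side of the threshold, 52 passed newly, 28 no longer passed and 5 changed sign. Scaling by library size without TMM put the median over all tested genes at -0.55 at 0.5 h of 40°C, against 0.01. For the treatment difference HSP22A had 5 calls by edgeR, 10 by DESeq2 and 12 by limma, which also changes the scale to log2(TPM + 1); HSP22B had 0, 5 and 6, and HSP22H 0, 6 and 7. The direct test, another comparison that leaves out the pre-heat libraries and adds the TPM criterion, called 13, 8 and 8. The shares of all genes called by DESeq2 and by limma are not given here, and the cause of the differing counts was not tested.

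HSP22H at 35°C had 1 call without the TPM criterion. The steps called for HSP22A at 35°C were 6 with the 45 libraries of the treatment, against 2. For HSP22B at 35°C they were 1 with library size alone, 1 with DESeq2 and 2 with the 45 libraries, against 0. Leaving out each replicate letter in turn gave 0 to 1 treatment differences for HSP22H, 4 to 5 for HSP22A and 0 for HSP22B. Steps called were 2 to 4 for HSP22A and 0 to 1 for HSP22B at 35°C, and 6 to 9 for HSP22A, 3 to 5 for HSP22B and 4 to 5 for HSP22H at 40°C; calls against pre-heat were 12 to 13, 10 to 11 and 8 at 40°C and 9, 6 to 8 and 0 at 35°C for HSP22A, HSP22B and HSP22H.

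Signs turned for HSP22B at 35°C at 2 h of recovery (-0.00087 to 1.01 over the replicates left out) and at 48 h (-1.21 to 0.43), for HSP22H at 4 h of recovery at 35°C (-0.18 to 3.05), and for the step of HSP22A at 16 h of 40°C (-0.03 to 2.36, and -0.032 without its 16 h library B).

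Letters were not taken as pairs, since the labels do not say whether a letter is the same culture followed through time. The paper describes repeated sampling of the cultures over the time course. Libraries of a time course may therefore not be independent, as the main fit took them to be. The r of the deviations of 84 same-letter pairs with pre-heat was -0.23 to 0.57 (median 0.15), and 53 were over 0.1. Of 84 libraries, 60 correlated best with their own letter among A, B and C, so pairing was not excluded. With a replicate block, HSP22A was newly called at 48 h of recovery from 40°C (3.17, edgeR adjusted p = 0.0393) and for its 35°C step at 1 h of heat (-1.73, edgeR adjusted p = 0.0473), and lost its treatment difference at 0 h of recovery (3.02, edgeR adjusted p = 0.0583) and its 40°C step at 16 h (1.51, edgeR adjusted p = 0.0558). HSP22H had under 10 reads in 64 libraries, and the part of depth in its results was not tested.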
